A study of Mus musculus with 27 samples.

Results

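Hippocampal single-nucleus RNA-seq libraries from mice that carried the P301S tau transgene and lacked Cgas were compared with libraries from tau-free mice with intact Cgas, to ask which differences of tauopathy are seen when Cgas is deleted. Members were chosen by genotype label alone and number 11 of the 27 libraries in the series, each from 1 mouse. Of these, 6 were P301S Cgas-/- (transgene present, both Cgas copies deleted, 3 male and 3 female) and 5 were Cgas+/+ (no transgene, both Cgas copies intact, 3 male and 2 female). The mice were 8 to 9 months old by the study's Results and 9 to 10 months old by its Methods. The groups differ by 2 alleles at once, so the transgene and the deletion cannot be told apart from this comparison alone. Therefore 6 P301S Cgas+/+ libraries (transgene, intact Cgas) and, for a few values, 2 Cgas-/- libraries (no transgene, both male) are set beside it. A further 6 P301S Cgas+/- libraries (transgene, 1 Cgas copy) entered the fits and share their estimate of the spread, but are not compared here. The deletion is carried by every cell of the mouse and not by microglia alone.

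P301S mice express human tau with a disease mutation under the mouse prion protein promoter, which is active in neurons and, less strongly, in other cells. cGAS is a cytosolic DNA sensor that makes the second messenger cGAMP, and cGAMP activates STING, the kinase TBK1 and the factor IRF3 to switch on type I interferon genes. Secreted interferon binds the receptor IFNAR1 and IFNAR2 on the same and on neighbouring cells, and a complex that includes STAT2 and IRF9 then induces the interferon-stimulated genes. In tauopathy, microglia also lose homeostatic genes and gain a set known as disease-associated, and astrocytes and oligodendrocytes enter reactive states.

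The 11 libraries held 46091490 to 79484316 unique molecular identifiers (UMIs, each a captured RNA molecule) and 97540 barcodes. After filters, 80824 nuclei were kept, including 4084 microglia-like, 10806 astrocyte-like, 18075 oligodendrocyte-like, 2723 oligodendrocyte progenitor-like, 31648 excitatory and 5340 inhibitory neuron-like nuclei. Classes were named from marker genes of clusters, and 5328 of the kept nuclei stayed unnamed. The 11 microglial markers summed to 11300 to 16100 CPM in microglia-like nuclei of the 11 libraries. Any pair of the 11 libraries shared at most 39 barcodes, or 0.402% of the smaller library. UMIs were summed per library and class, so that the library was the replicate, and levels are given as CPM, counts per 1000000, that is, a gene's UMIs per 1000000 UMIs of that class in that library. In such sums, fewer cells of a state and less RNA per cell cannot be told apart. A gene passed when its adjusted p from edgeR's quasi-likelihood test was under 0.05 over all genes tested in the class. A log2 fold change is P301S Cgas-/- minus Cgas+/+ unless another contrast is named, with a standard error after ±. This error was back-calculated as the absolute log2 fold change divided by the square root of the F statistic of edgeR's test.

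In microglia-like nuclei interferon-stimulated, antigen presentation and disease-associated genes lay higher in all 6 P301S Cgas-/- libraries than in the Cgas+/+ libraries when each list was averaged. The interferon, antigen presentation and reactive lists lay higher in 5 or 6 of the 6 libraries in the other glial classes, except the reactive astrocyte list, with 4 of 6. These means cover tested members only, so they are a description and support nothing. Over all members, tested or not, the same numbers of libraries lay higher. For antigen presentation 1 library lay below every Cgas+/+ library in astrocyte-like and in oligodendrocyte progenitor-like nuclei. Single genes mostly missed the threshold in glia, with 0 of 9143 genes passing in microglia-like nuclei, 0 of 12982 in those of astrocytes and 0 of 12392 in those of oligodendrocytes. In neurons the genes that passed were Gm43049, 4930590L14Rik and Prn, which are on a list linked to the transgene, and Itgad. That list was picked from earlier results of these data, so calls on it are no independent evidence. No gene passed in the test of the difference between P301S Cgas-/- and P301S Cgas+/+ in any of the 9 classes.

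Interferon-stimulated genes carry, upstream of their starts, a site for the STAT and IRF factors known as the interferon-stimulated response element. Of the 17 interferon-stimulated genes picked for naming in any class, 4 had the letters GAAANNGAAA, searched on both strands, in the 250 bases before the RefSeq start. They are shown 5′ to 3′ on the strand of the gene, with the match in capitals. A match on the opposite strand appears here as TTTCNNTTTC.
Gbp7: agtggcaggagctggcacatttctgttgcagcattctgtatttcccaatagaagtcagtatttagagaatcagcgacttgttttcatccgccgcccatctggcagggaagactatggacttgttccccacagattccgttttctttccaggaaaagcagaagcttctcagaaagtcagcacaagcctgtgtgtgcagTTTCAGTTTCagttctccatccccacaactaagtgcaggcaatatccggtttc
Ifit1: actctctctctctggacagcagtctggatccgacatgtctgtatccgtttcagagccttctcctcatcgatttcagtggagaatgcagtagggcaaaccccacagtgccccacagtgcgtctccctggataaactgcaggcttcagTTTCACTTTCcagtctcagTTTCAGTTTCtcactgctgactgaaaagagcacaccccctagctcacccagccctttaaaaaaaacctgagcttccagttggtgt
Stat2: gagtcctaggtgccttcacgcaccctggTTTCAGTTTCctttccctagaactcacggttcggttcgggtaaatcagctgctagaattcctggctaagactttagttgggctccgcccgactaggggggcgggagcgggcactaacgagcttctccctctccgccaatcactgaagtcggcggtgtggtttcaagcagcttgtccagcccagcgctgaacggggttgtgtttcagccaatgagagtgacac
Trim30d: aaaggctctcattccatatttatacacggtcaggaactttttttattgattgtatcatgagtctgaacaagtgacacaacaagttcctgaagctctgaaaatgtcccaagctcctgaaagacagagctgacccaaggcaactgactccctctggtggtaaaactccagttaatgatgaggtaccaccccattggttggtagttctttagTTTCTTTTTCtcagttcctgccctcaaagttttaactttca
The stretches are RefSeq sequence of GRCm38.p6 at chr3:142530086-142530335 on the + strand for Gbp7, chr19:34640639-34640888 on the + strand for Ifit1, chr10:128270248-128270497 on the + strand for Stat2 and chr7:104507850-104508099 on the - strand for Trim30d. The match begins 53 bases before the start of Gbp7 (a guanylate-binding protein), 222 before that of Stat2 and 41 before that of Trim30d (a member of the TRIM30 cluster), and Ifit1, which binds foreign RNA, has matches at 104 and 85 bases. Across all 27025 promoters of the table, 936 (3.46%) held the pattern, against 24 of the 53 listed interferon-stimulated genes that were found in it (45.3%), 3 of 13 for antigen presentation, 2 of 28 for the disease-associated list and 0 of 15 for the homeostatic list. Among the interferon-stimulated genes tested in microglia-like nuclei, 3 of 11 of those higher in every P301S Cgas-/- library and 11 of 26 of the others held it. These matches describe letters, not binding.

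The deleted gene was examined first. Cgas (listed as Mb21d1, chr9:78430526-78443237, - strand) stood in microglia-like nuclei at 35.3, 38.2, 35.1, 32.2 and 35.5 CPM in the Cgas+/+ libraries, and at a lowest 39.9, a median 52.8 and a highest 57.9 CPM in the P301S Cgas-/- libraries. All 6 libraries labelled Cgas-null thus had a higher Cgas level than every wild-type library. The difference was 0.52 on the log2(CPM + 1) scale (two-sided exact permutation p = 0.00433, which is the smallest that 462 splits allow, adjusted p = 0.00866 over 4 single-gene tests). Among the 4 is Gm43049, whose p was fixed in advance. It makes the adjusted permutation p values of Cgas and of Sting1 smaller than they would be without it. For Cgas, edgeR gave 0.53 ± 0.216 with an adjusted p of 0.19. The libraries count 3′ ends of transcripts, so UMIs from a part of the gene outside the deletion remain possible and this value checks nothing about the deletion. In excitatory neuron-like nuclei Cgas stood at 1.14 to 1.57 CPM in Cgas+/+ and 0.831 to 1.45 CPM in P301S Cgas-/-, where 5 of 6 libraries lay below every wild-type library (-0.44 ± 0.231, adjusted p = 0.653, edgeR). The deletion thus rests on the labels, while transcripts linked to the transgene are given with the neuronal results. The 2 Cgas-/- libraries without the transgene stood at 21.6 and 33.1 CPM in microglia-like nuclei.

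Further members of the pathway were described in the same class. Sting1, which encodes the cGAMP receptor (listed as Tmem173), stood at 44.7, 59.7, 35.1, 64.4 and 33.6 CPM in Cgas+/+ and at 15.2, 29.8 and 44.1 CPM (lowest, median, highest) in P301S Cgas-/-. Of the 6 libraries, 4 lay below every wild-type library, and the groups overlapped. The difference of -0.70 on the log2(CPM + 1) scale missed the threshold (two-sided exact permutation p = 0.0519, adjusted p = 0.0693), although it passed the same permutation test without P301S Cgas-/- replicate 3 (-0.83, adjusted p = 0.0423). Of 13 tested pathway genes none passed, and their median log2 fold change was 0.53 beside 0.02 over all genes tested. The receptor genes Ifnar2 and Ifnar1 had log2 fold changes of 0.63 ± 0.2 and 0.78 ± 0.249 (adjusted p = 0.109 for both), with 5 and 4 of the 6 libraries above every Cgas+/+ library. Enpp1, whose product degrades cGAMP outside the cell, had 2.04 ± 0.685 (adjusted p = 0.122).

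The list of interferon-stimulated genes holds 68 members, of which 11 to 49 had enough counts to be tested in a class. A member that reached the test only through the libraries where it is high could hardly lie below 0, so counts, medians and list means over tested members are a description and support nothing. Over all 68 members, tested or not, the mean CPM was higher in P301S Cgas-/- for 64 and lower for 2 in microglia-like nuclei, with 2 at 0 in all 11 libraries. The list mean over all 68 was 2.612 to 3.222 in Cgas+/+ and 3.255 to 5.001 in P301S Cgas-/-, so the groups nearly met without overlapping. Microglia-like sums held 341399 to 535748 UMIs per Cgas+/+ library and 408301 to 1251726 per P301S Cgas-/- library. The part of this depth in the list means was not tested. Among 49 tested interferon-stimulated genes in microglia-like nuclei, 48 had a log2 fold change above 0 and 14 were higher in every P301S Cgas-/- library than in every Cgas+/+ library. Over all 9143 genes tested, 246 (2.69%) were higher in this way. The list median was 1.22 beside 0.02 over all genes tested. None passed in edgeR (0 of 9143 genes, or 0.0%, with 1709 at an unadjusted p under 0.05), whereas in DESeq2 on the same 23 libraries 323 genes passed (3.53%), 210 of them higher (2.3%), and 20 of these were on the list. The mean log2(CPM + 1) of the list was 3.65, 4.22, 3.47, 3.58 and 4.13 in the Cgas+/+ libraries and 5.26, 6.05, 5.78, 4.83, 5.17 and 4.38 in P301S Cgas-/- replicates 1 to 6. Replicate 2 was the highest and replicate 6 the lowest, yet all lay above the wild-type range.

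Lgals3bp, a secreted galectin ligand, illustrates the list with 0, 11.9, 4.68, 2.93 and 7.47 CPM in Cgas+/+ and 15, 29.9 and 53.9 CPM (lowest, median, highest) in P301S Cgas-/-. The groups did not overlap, and the log2 fold change was 2.52 ± 0.577. With so few UMIs in Cgas+/+, Lgals3bp reached the test only through P301S libraries. Its p values against Cgas+/+ are therefore not given. Dtx3l, a ubiquitin ligase that partners PARP9, stood at 16.5, 28.7, 16.4, 17.6 and 22.4 CPM against 29.6, 39 and 78.4 CPM. These ranges met within 1 CPM without overlapping (log2 fold change 1.16 ± 0.288, adjusted p = 0.0727). Trim30d stood at 65.9, 103, 65.6, 55.7 and 72.8 CPM against 85.5, 152 and 204 CPM, with 5 of 6 libraries above every wild-type library (1.10 ± 0.251, adjusted p = 0.0717).

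All 18 antigen presentation genes had a higher mean CPM in P301S Cgas-/- microglia-like nuclei. All 17 that were tested had a log2 fold change above 0, with a median of 2.12, and 5 were higher in every library, against 2.69% of all genes. None passed in edgeR and 7 passed, higher, in DESeq2, against 2.3% of all genes. H2-K1, a class I heavy chain (chr17:33996017-34000347, - strand), stood at 16.5, 28.7, 30.5, 46.9 and 20.5 CPM in Cgas+/+ and at 53.4, 128 and 402 CPM (lowest, median, highest) in P301S Cgas-/-. Every P301S Cgas-/- library was higher, and the log2 fold change was 2.70 ± 0.615 (adjusted p = 0.0717). B2m, the shared light chain of class I, had 1.16 ± 0.315 (adjusted p = 0.0853), and H2-Q4, a non-classical class I gene, had 2.58 ± 0.752 (adjusted p = 0.0946), each with 5 of 6 libraries above. Class I genes have near-identical copies, so the split of reads among H2-K1, H2-D1 and H2-Q4 is uncertain.

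All 33 disease-associated genes in the files had a higher mean CPM in P301S Cgas-/-. The 30 that were tested all had a log2 fold change above 0, the median was 1.75, and 15 were higher in every P301S Cgas-/- library, against 2.69% of all genes. In DESeq2 12 of them passed, higher, against 2.3% of all genes. The list mean was 4.10, 4.19, 3.94, 3.77 and 4.46 in Cgas+/+ and 6.05, 6.95, 5.17, 5.5, 6.97 and 5.66 in P301S Cgas-/- replicates 1 to 6. Replicate 3, among the highest for interferon and class I genes, was the lowest here.

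Cd9, a tetraspanin raised in disease-associated microglia, stood at 94.1, 143, 96, 129 and 166 CPM in Cgas+/+ and at 216, 441 and 602 CPM in P301S Cgas-/-. The groups were separate, with a log2 fold change of 1.76 ± 0.437 (adjusted p = 0.0781, edgeR, and 0.00235, DESeq2). Ccl4, a chemokine, was at 2.35, 2.39, 2.34, 0 and 0 CPM against 8.55, 15.1 and 38.6 CPM (3.68 ± 0.814). Cd63, a lysosomal tetraspanin, was at 0, 4.78, 0, 0 and 3.73 CPM against 9.88, 14.3 and 27 CPM (2.94 ± 0.75). Both rest on a few UMIs per wild-type library. They reached the test only through P301S libraries, so their p values are not given.

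Of the 20 homeostatic microglial genes, 18 had a log2 fold change below 0, with a median of -0.46, and 2 were lower in every P301S Cgas-/- library, against 112 of all genes (1.22%). None passed in edgeR or DESeq2. Cx3cr1, the fractalkine receptor, stood at 995, 1190, 1320, 1320 and 1210 CPM against 791, 888 and 1080 CPM. Of the 6 libraries 4 lay below every wild-type library (-0.46 ± 0.146, adjusted p = 0.109). P2ry13, an ADP receptor, had -0.90 ± 0.304 (adjusted p = 0.121) and Cst3, the protease inhibitor cystatin C, -0.76 ± 0.266 (adjusted p = 0.137). Of 9 tested complement genes none passed and the median was 0.16. Their list mean lay at 6.32 to 6.49 in Cgas+/+ and higher in all 6 P301S Cgas-/- libraries, up to 6.84. Over all 12 members, tested or not, the ranges overlapped (4.74 to 4.975 against 4.939 to 5.462), with 5 libraries above every wild-type library. C3ar1, the C3a receptor, had 0.91 ± 0.303 (adjusted p = 0.119).

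**Figure D1:**
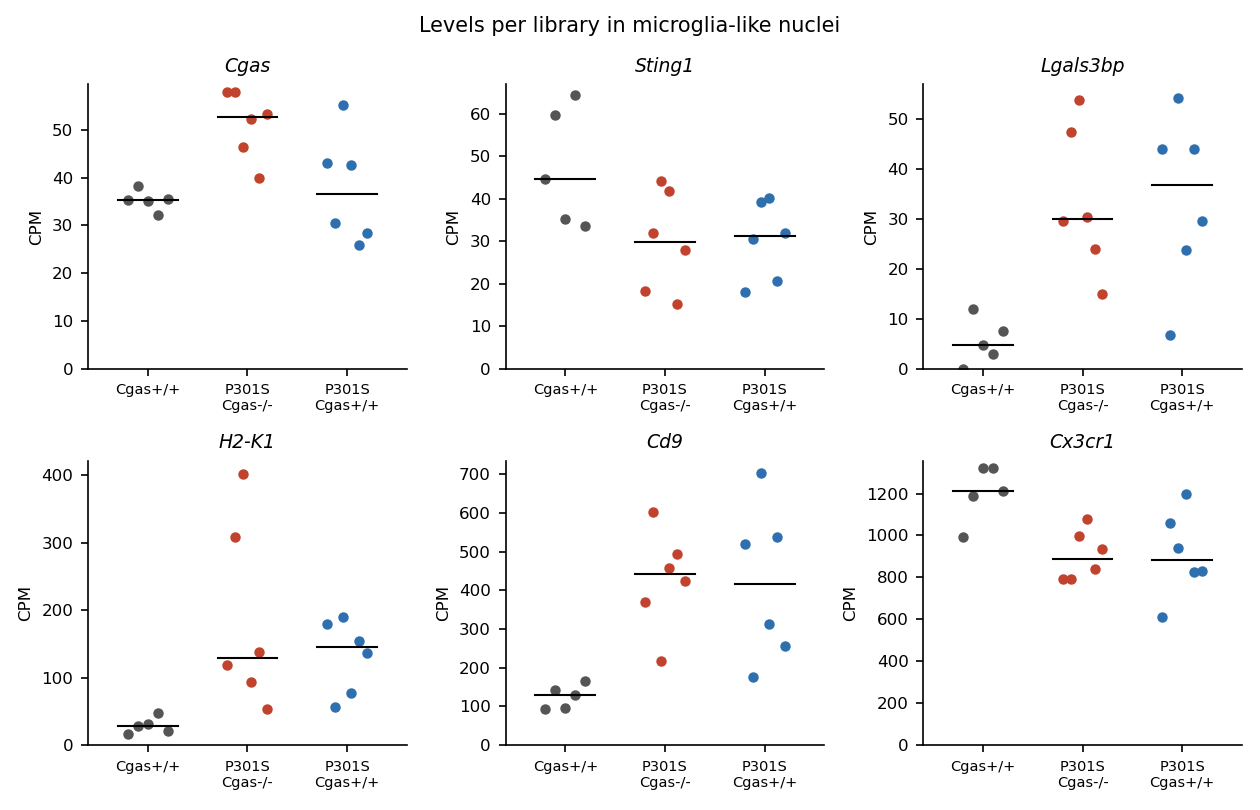
CPM (y axis, linear from 0) of Cgas, Sting1, Lgals3bp, H2-K1, Cd9 and Cx3cr1 in microglia-like nuclei, 1 point per library, with a line at the median of the 5 Cgas+/+, 6 P301S Cgas-/- and 6 P301S Cgas+/+ libraries. Cd9 stands at 94.1 to 166 CPM in Cgas+/+ and at 216 to 602 CPM in P301S Cgas-/-, and 1 P301S Cgas+/+ library, at 6.77 CPM, lies within the wild-type range for Lgals3bp.

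The microglial genes of smallest p, none of them passing, came from outside the lists. Bcl2l1, the anti-apoptotic BCL-XL, was at 226, 289, 171, 226 and 231 CPM in Cgas+/+ and 340, 440 and 494 CPM in P301S Cgas-/- (0.94 ± 0.175, adjusted p = 0.0567). Fmnl2, a formin that elongates actin, was at 272 to 336 CPM against 507, 704 and 838 CPM (1.2 ± 0.224, adjusted p = 0.0567). For both, every P301S Cgas-/- library exceeded every wild-type library. Zfp992, a zinc finger gene, had 1.48 ± 0.278 (adjusted p = 0.0567), but the zinc finger family holds near-identical copies. Lower were Slco3a1, an organic anion transporter (-1.36 ± 0.289), Eps8, an actin capping protein (-1.37 ± 0.29), and Psd3, an exchange factor (-0.94 ± 0.205), each with an adjusted p of 0.0717.

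The number of microglial genes that passed differed between fits, and the cause was not tested. With only the 11 libraries in the fit, 774 of 6846 genes passed (11.3%), 394 higher (5.76%) and 380 lower (5.55%), including 24 of 33 tested interferon-stimulated genes, all higher, and 11 of 20 homeostatic genes, all lower. P301S Cgas+/+ replicate 2, which is in neither group compared, had list means of 3.59 for interferon-stimulated and 3.92 for disease-associated genes, within the Cgas+/+ range, while the other 5 libraries of its group lay at 4.36 or above and at 4.62 or above. Without this library, left out after the data were seen, 148 of 9250 genes passed (1.6%), 119 higher (1.29%) and 29 lower (0.314%). Among them were 12 interferon-stimulated and 5 disease-associated genes. As the library was picked with these list means known, such passes support nothing. T cell markers summed to 404 to 820 CPM in the P301S Cgas-/- microglia-like sums against 305 to 471 CPM in Cgas+/+, with 4 of 7 markers higher and 2 at 0 in both groups, and border macrophage markers to 6.41 to 118 against 46.9 to 398 CPM, with 1 of 6 higher. Fibroblast markers summed to 21.4 to 33.9 against 40.0 to 72.8 CPM, with 2 of 8 higher, choroid plexus markers to 53.9 to 131 against 49.8 to 418 CPM and inhibitory neuron markers to a mean of 337 against 469 CPM, each with 0 of 7 higher, and oligodendrocyte markers to 349 to 555 against 255 to 525 CPM, with 9 of 10 higher. Their part in these results was not tested.

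**Figure D2:**
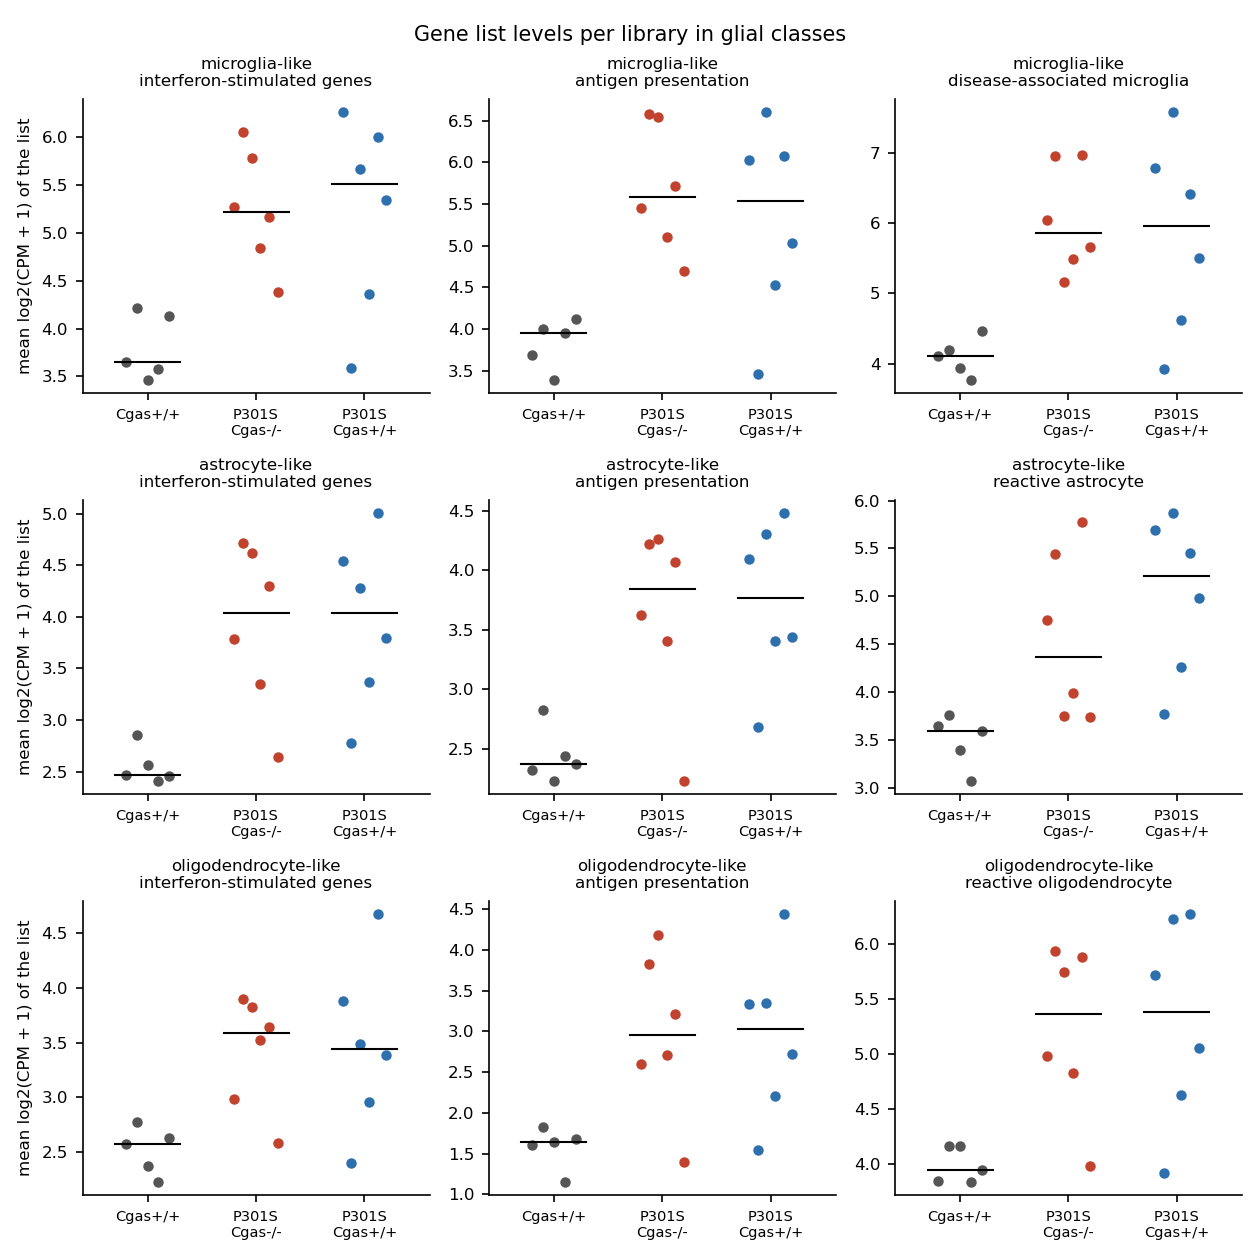
Mean log2(CPM + 1) of the genes of a list (y axis) per library in the microglia-like class and in those of astrocytes and oligodendrocytes, with a line at the median of each group of 5 Cgas+/+, 6 P301S Cgas-/- and 6 P301S Cgas+/+ libraries. In microglia-like nuclei all 6 P301S Cgas-/- libraries lie above the Cgas+/+ range for all 3 lists, and P301S Cgas+/+ replicate 2, at 3.59 and 3.92 for the first and the last list, lies within it.

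In astrocyte-like nuclei 61 of the 68 interferon-stimulated genes had a higher mean CPM in P301S Cgas-/-, 5 a lower one and 2 were at 0 in all 11 libraries. Of the 43 that could be tested 42 had a log2 fold change above 0, and the median was 1.80 beside 0.01 over all genes tested. None of 12982 genes passed in edgeR (0.0%, with 1077 at an unadjusted p under 0.05), and 42 passed in DESeq2 (0.324%), 24 of them higher (0.185%), 11 of these on the list. In every P301S Cgas-/- library 5 of the list lay above every Cgas+/+ library, against 62 of all genes (0.478%). The list mean was 2.46, 2.85, 2.56, 2.41 and 2.45 in Cgas+/+ and 3.79, 4.71, 4.62, 3.35, 4.29 and 2.64 in P301S Cgas-/-. Replicate 6 lay within the wild-type range and the other 5 above it. Microglial markers summed to 90.9 to 169 CPM in these P301S Cgas-/- sums and 101 to 106 CPM in Cgas+/+, with 6 of 11 higher and 0 undetected in both. Oligodendrocyte markers summed to 142 to 262 against 101 to 211 CPM, with 8 of 10 higher, inhibitory neuron markers to 635 to 882 against 757 to 1160 CPM, with 1 of 7 higher, and choroid plexus markers to 38.1 to 79.6 against 28.3 to 257 CPM, with 0 of 7 higher. The part of these was not tested.

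Samd9l, an interferon-induced antiviral gene, was at 0.266, 0.34, 0, 0.442 and 0.216 CPM in Cgas+/+ and 1.8, 3.57 and 12.1 CPM in P301S Cgas-/-. The groups did not overlap (4.34 ± 1.04). Gbp2b, a guanylate-binding protein, had UMIs in 1 Cgas+/+ library (0.216 CPM) and in all 6 P301S Cgas-/- libraries (0.875, 5.1 and 9.99 CPM). With at most 0.442 CPM in Cgas+/+, Samd9l and Gbp2b reached the test only through P301S libraries. Their p values are therefore not given. Ifit2, which binds viral RNA, stood at 0.885 to 3.74 CPM against 3.59, 5.42 and 14.8 CPM (1.80 ± 0.429, adjusted p = 0.283). For it 5 of 6 libraries lay above every wild-type library.

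All 10 tested antigen presentation genes had a log2 fold change above 0 in astrocyte-like nuclei, with a median of 1.39. Nlrc5, the transactivator of class I genes, had 2.69 ± 0.737 (adjusted p = 0.367, edgeR, and 0.0332, DESeq2) and H2-K1 1.5 ± 0.383 (adjusted p = 0.313 and 0.0245). Of 20 tested reactive astrocyte genes 17 were above 0, with a median of 1.75. Osmr, the oncostatin M receptor, was at 13.8, 10.2, 15.7, 8.85 and 23.1 CPM in Cgas+/+ and 23.6, 58.6 and 269 CPM in P301S Cgas-/-. The lowest of the second group exceeded the highest of the first by less than 1 CPM (2.54 ± 0.775, adjusted p = 0.392).

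Of the 3 listed reactive genes below 0, 1 was lower in every P301S Cgas-/- library, against 27 of all genes (0.208%). This was Tnc, the matrix glycoprotein tenascin C, which stood at 138, 71, 124, 69 and 186 CPM in Cgas+/+ and at 38.1, 54.6 and 68 CPM in P301S Cgas-/-, lower in all 6 (-1.19 ± 0.306, adjusted p = 0.313, edgeR, and 0.0353, DESeq2). Of the 15 tested cholesterol synthesis genes all had a log2 fold change below 0, with a median of -0.38, and none passed in either tool. Sqle, squalene epoxidase, illustrates this with 43.1, 36.7, 32.6, 41.1 and 40 CPM against 12.7, 30.8 and 35.6 CPM (-0.46 ± 0.296, adjusted p = 0.737, and -0.27 without P301S Cgas-/- replicate 5). Of 16 transport and coupling genes 13 were below 0 with a median of -0.18, and Slc6a11, a GABA transporter, had -0.35 ± 0.182 (adjusted p = 0.634). Gm28305, Camkv and Rspo2 had the smallest p among lower genes (-1.04 ± 0.213, -0.94 ± 0.195 and -1.19 ± 0.251, each at an adjusted p of 0.221).

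In oligodendrocyte-like nuclei antigen presentation had the largest median of the lists described. All 9 tested antigen presentation genes had a log2 fold change above 0, with a median of 2.81 beside 0.01 over all genes tested, and none was higher in every library. None of 12392 genes passed in edgeR (0.0%, with 1132 at an unadjusted p under 0.05), and 21 passed in DESeq2 (0.169%), 8 higher and 13 lower, among them H2-K1 and H2-D1, both at an adjusted p of 0.0497. H2-D1 was at 3.34, 5.9, 6.3, 1.31 and 3.94 CPM in Cgas+/+ and 4.79, 25.8 and 189 CPM in P301S Cgas-/- (3.28 ± 1.07, adjusted p = 0.469, edgeR). Replicate 3 was the highest by far and replicate 6 lay within the wild-type range. Here microglial markers summed to 144 to 186 against 130 to 159 CPM, with 7 of 11 higher. CA3 markers summed to 339 to 410 against 435 to 507 CPM, with 3 of 9 higher, and choroid plexus markers to 1360 to 1720 against 1530 to 1940 CPM, with 0 of 7 higher. Committed precursor markers summed to 1190 to 1440 against 1260 to 1430 CPM, with 8 of 8 higher. The part of these was not tested either.

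Over all 68 interferon-stimulated genes in oligodendrocyte-like nuclei 59 had a higher mean CPM in P301S Cgas-/- and 6 a lower one. Of 21 tested 19 were above 0, with a median of 0.97, and 1 was higher in every library, against 44 of all genes (0.355%). Eif2ak2, the double-stranded RNA kinase PKR, was at 1.43, 3.48, 1.97, 1.31 and 5.63 CPM against 2.18, 11.4 and 17.5 CPM (1.89 ± 0.669, adjusted p = 0.481), with 4 of 6 libraries above. All 10 tested reactive oligodendrocyte genes were above 0, with a median of 1.80. This list shares B2m, H2-D1 and H2-K1 with the antigen presentation list, so the lists are not separate results. C4b, complement C4, was at 46.2, 74, 49.6, 21.5 and 19.2 CPM against 58.8, 143 and 392 CPM (2.09 ± 0.848, adjusted p = 0.5). The 20 myelin genes had a median of 0.07 and none passed. Vangl1 and Nav2 (0.68 ± 0.154 and 0.56 ± 0.129) and, lower, Pacsin1, Rab27a and Fbxl7 (-0.46 ± 0.0974, -1.40 ± 0.303 and -0.99 ± 0.223) had the smallest p, all at an adjusted p of 0.381.

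In oligodendrocyte progenitor-like nuclei 3 of 8642 genes passed (0.0347%), 1 higher (0.0116%) and 2 lower (0.0231%), and 16 passed in DESeq2 (0.185%). Ablim3, an actin-binding LIM protein, fell from 38.6, 40.2, 61.8, 57.4 and 46.9 CPM in Cgas+/+ to 16.2, 23.7 and 30.7 CPM (lowest, median, highest) in P301S Cgas-/-, with no overlap (-1.10 ± 0.181, adjusted p = 0.00299, edgeR). St6galnac5, a sialyltransferase that makes gangliosides, fell from 57.9, 49.6, 55.8, 56.1 and 64.6 CPM to 18.4, 25.6 and 47 CPM, again with no overlap (-1.04 ± 0.207, adjusted p = 0.0373). Ablim3 passed under every alternative run, whereas St6galnac5 missed the threshold when any of several single libraries was left out, with adjusted p up to 0.26 without Cgas+/+ replicate 5, and also with likely doublets kept (0.363) or no sex term (0.119). Their difference between P301S Cgas-/- and P301S Cgas+/+ was -0.48 ± 0.181 and -0.62 ± 0.203 and did not pass (adjusted p = 0.998 for both). Ablim3 is also among the markers used for dentate granule neurons, which summed to 191 to 291 CPM in the P301S Cgas-/- and 236 to 291 CPM in the Cgas+/+ progenitor-like sums. Oligodendrocyte markers summed there to 222 to 269 CPM in P301S Cgas-/- and 153 to 233 CPM in Cgas+/+, with 10 of 10 higher, and the part of such RNA was not tested.

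Over all 68 interferon-stimulated genes in progenitor-like nuclei 54 had a higher mean CPM in P301S Cgas-/-, 3 a lower one and 11 were at 0. All 20 that were tested were above 0, with a median of 1.39, and 9 of them were higher in every P301S Cgas-/- library, against 48 of all genes (0.555%). Ddx58, the RNA sensor RIG-I, was at 15, 17.4, 21.3, 22.5 and 14.6 CPM in Cgas+/+ and at 36.1, 51.2 and 63.5 CPM in P301S Cgas-/-. The groups were separate (1.48 ± 0.312, adjusted p = 0.108, edgeR, and 0.00328, DESeq2). Ddx58 passed in edgeR without P301S Cgas+/+ replicate 2 (adjusted p = 0.0342), which was left out after the data were seen, so this pass supports nothing. Irf9, a subunit of the interferon-activated complex, was higher in all 6 libraries as well (1.75 ± 0.448, adjusted p = 0.188), and Trim25, the ubiquitin ligase of RIG-I, in 5 (1.30 ± 0.308, adjusted p = 0.121). The list mean was 3.2 to 3.5 in Cgas+/+ and 3.97 to 5.17 in P301S Cgas-/-. No overlap was seen in this class, replicate 6 again being the lowest.

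**Figure D3:**
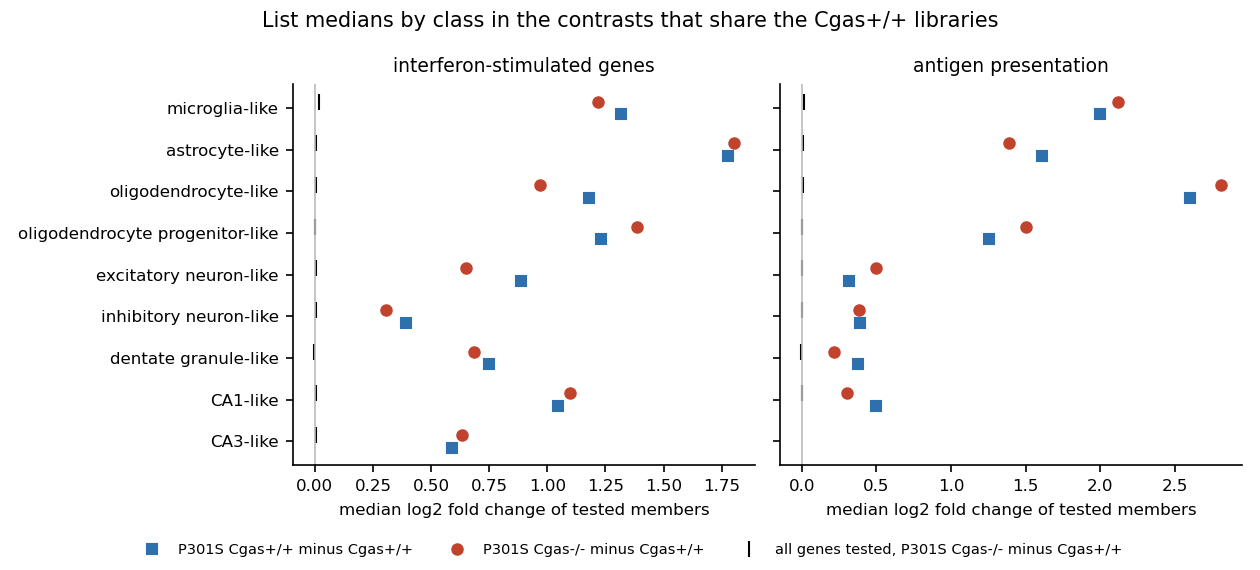
Median log2 fold change (x axis) of the tested interferon-stimulated and antigen presentation genes in 9 classes (y axis), for P301S Cgas-/- minus Cgas+/+ (circles) and P301S Cgas+/+ minus Cgas+/+ (squares), with a tick at the median of all genes tested. Medians of interferon-stimulated genes run from 0.31 in inhibitory neuron-like to 1.80 in astrocyte-like nuclei for the circles, and no antigen presentation gene was tested in CA3-like nuclei.

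The same members were set beside the contrast of P301S Cgas+/+ with Cgas+/+, which shares the 5 control libraries. In microglia-like nuclei the medians with intact Cgas were 1.32 for interferon-stimulated, 2.0 for antigen presentation, 1.83 for disease-associated and -0.44 for homeostatic genes, next to 1.22, 2.12, 1.75 and -0.46 without Cgas. In astrocyte-like nuclei they were 1.78 for interferon-stimulated genes next to 1.80, 2.34 for reactive genes next to 1.75, and -0.72 for cholesterol synthesis genes next to -0.38. The group with intact Cgas includes P301S Cgas+/+ replicate 2. Its microglial list means for interferon-stimulated, antigen presentation and disease-associated genes (3.59, 3.46 and 3.92) lay within the Cgas+/+ ranges. The part of this library in the medians was not tested. The direct test of P301S Cgas-/- minus P301S Cgas+/+ gave medians of -0.15 for microglial and -0.18 for astrocytic interferon-stimulated genes, -0.54 for reactive astrocyte genes and 0.35 for astrocytic cholesterol synthesis genes. For interferon-stimulated genes it was -0.44 in excitatory neuron-like nuclei, where the medians against Cgas+/+ were 0.89 with and 0.65 without Cgas, -0.22 in oligodendrocyte-like nuclei and between -0.21 and 0.03 in the other 5 classes.

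That test called no gene in edgeR in any class (0 of 9143, or 0.0%, in microglia-like nuclei with 248 at an unadjusted p under 0.05, and 0 of 12982 in astrocyte-like nuclei with 615). DESeq2 called 1 gene in astrocyte-like nuclei (0.0077%), 132 in excitatory neurons (0.788%), 9 in inhibitory neurons (0.0711%) and 0 in the other 6 classes. Cortical-like nuclei made up 43.1% of excitatory nuclei on average in P301S Cgas-/- (29.3 to 63.7%) and 22.1% in P301S Cgas+/+ (1.65 to 52.4%), and their part in the 132 calls was not tested. For microglial Lgals3bp, H2-K1 and Cd9 the difference between the P301S groups was -0.12 ± 0.355, 0.40 ± 0.452 and 0.02 ± 0.378 (adjusted p = 1.0 for each). These p values do not show that the groups were alike. Larger values were seen for the transporter gene Slco3a1 at -0.70 ± 0.268 and for Ifnar2 at 0.54 ± 0.182, neither passing (adjusted p = 1.0).

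In excitatory neuron-like nuclei 3 of 16748 genes rose and none fell in edgeR (0.0179% higher), whereas DESeq2 called 49 (0.293%), 16 higher and 33 lower. All 3 of the edgeR calls were on a list of 6 genes linked to the transgene, which had been picked from earlier results of these data and so is no independent evidence. Gm43049, a predicted long noncoding RNA at chr3:140692038-140760704 on the - strand, had 3 UMIs over the 5 Cgas+/+ libraries and 1381 over the 6 P301S Cgas-/- libraries, a ratio of 443 (exact 95% counting interval 151 to 2150). Its levels were 0, 0, 0.0674, 0 and 0.028 CPM against 3.2, 7.43 and 20.2 CPM, with no overlap. Its neighbour 4930590L14Rik (chr3:140951876-140953247, + strand) had 156 UMIs in P301S Cgas-/- against 0, at least 50.1-fold more when 3 counts over the group are taken as the floor. With 3 UMIs for Gm43049 and 0 for 4930590L14Rik in Cgas+/+, both genes reached the test only through P301S libraries, and their p values are not given. Intervals and floors cover counting error only.

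Prn, the readthrough transcript of the prion gene locus, rose from 0.979, 1.36, 0.91, 1.14 and 0.7 CPM to 2.52, 3.27 and 3.79 CPM (1.62 ± 0.197, adjusted p = 0.000237). Every P301S Cgas-/- library was above every Cgas+/+ library. Mapt, the mouse tau gene, stood at 441 to 565 CPM in Cgas+/+ and 464 to 615 CPM in P301S Cgas-/-, with overlap (0.08 ± 0.0887, adjusted p = 0.89). In P301S Cgas+/+ excitatory neuron-like nuclei Gm43049 was at 5.96 to 21.2 CPM, and its difference between the P301S groups was -0.35 ± 0.29 (adjusted p = 0.613).

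Gm43049 was also higher, and called, in inhibitory neuron-like (235 UMIs against 1, ratio 227, interval 40.3 to 9000), dentate granule-like (136 against 0, at least 68.1-fold), CA1-like (361 against 0, at least 130-fold) and oligodendrocyte progenitor-like nuclei (51 against 0, at least 15.7-fold). The last call was lost with no sex term and when any of 7 single libraries was left out. In astrocyte-like (53 against 0) and oligodendrocyte-like nuclei (73 against 0) it missed the threshold, and in microglia-like nuclei it had 11 UMIs against 1. With at most 1 UMI in Cgas+/+ in each of these classes, Gm43049 reached a test only through P301S libraries. Its p values against Cgas+/+ are therefore not given, and its calls support nothing. The CA1-like difference was 3.55 on the log2(CPM + 1) scale, with 6 of 6 libraries above. This was among the single-gene permutation tests. Every Cgas+/+ library stood at 0 and the gene was picked from these data, so its p was fixed in advance and is not given. Prn rose in CA1-like nuclei too (1.68 ± 0.288, adjusted p = 0.0355, 2 of 12842 genes or 0.0156% passing with it), but not when only the 11 libraries were fitted (adjusted p = 0.784), with no low-count filter (0.0549) or when any of 8 single libraries was left out (0.052 to 0.198). Of the 54 to 124 genes per class tested within 10 Mb of Cgas none passed. As only 0.0 to 0.0347% of all genes passed in a class, a count of none in so small a window shows nothing about these genes. Within 10 Mb of Gm43049 the calls were Gm43049 and 4930590L14Rik themselves. Within 10 Mb of Gm43049, 14 of 51 tested genes (27.5%, against 18.7% of all genes) had an unadjusted p under 0.05 in microglia-like nuclei. In astrocyte-like nuclei it was 12 of 73 (16.4%, against 8.3%) and in dentate granule-like nuclei 5 of 70 (7.14%, against 6.26%). Where Gm43049 was tested, these counts include it, the gene by which the window was chosen. No test was made of these shares and they support nothing.

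**Figure D4:**
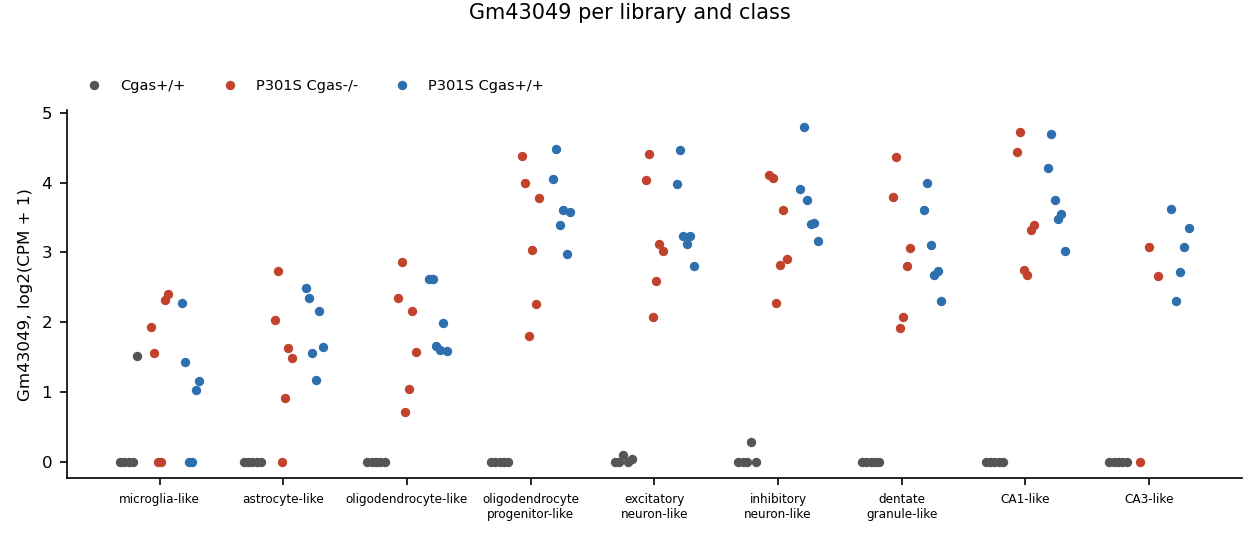
Gm43049 as log2(CPM + 1) (y axis) per library in 9 classes, for Cgas+/+, P301S Cgas-/- and P301S Cgas+/+ libraries that entered the fit of that class. Cgas+/+ libraries lie at or near 0 apart from 1 microglia-like point, where 1 UMI was counted, and both P301S groups lie above them in excitatory and inhibitory neuron-like nuclei.

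Interferon-stimulated genes in excitatory neuron-like nuclei were low, with 57 of all 68 at a higher and 9 at a lower mean CPM in P301S Cgas-/-, 37 of 39 tested above 0, a median of 0.65 and 1 higher in every library against 58 of all genes (0.346%). Oasl2, an oligoadenylate synthetase-like gene, was at 0.0377, 0.104, 0.0337, 0.0671 and 0.168 CPM in Cgas+/+ and 0.166, 0.746 and 4.56 CPM in P301S Cgas-/- (3.89 ± 1.06). At these Cgas+/+ levels Oasl2 reached the test only through P301S libraries, so its p values are not given. Ifit1 and Gbp7, whose promoters are shown above, had 2.89 ± 0.944 and 2.47 ± 0.775 (adjusted p = 0.425 and 0.407). Each had 5 of 6 libraries above every wild-type library. Of 11 tested antigen presentation genes 9 were above 0 with a median of 0.50, and H2-D1 had 1.17 ± 0.366 (adjusted p = 0.407).

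In CA1-like nuclei, 55 of all 68 interferon-stimulated genes had a higher and 8 a lower mean CPM in P301S Cgas-/-, 18 of 19 tested were above 0 with a median of 1.10, and replicate 2 stood far apart. Parp9, the partner of DTX3L, was at 4.01, 3.41, 4.02, 6.0 and 4.0 CPM in Cgas+/+ and at 4.45, 7.57 and 26.1 CPM in P301S Cgas-/-, with 5 of 6 libraries above every wild-type library (1.09 ± 0.317, adjusted p = 1.0). Oasl2 was at 0 in 3 Cgas+/+ libraries and at most 0.353 CPM in the others, against 0.148, 1.95 and 56.6 CPM in P301S Cgas-/-. It reached the test only through P301S libraries here too, so its p is not given. The list mean of replicate 2 was 4.42 against 1.87 to 3.15 in the other 5 and 1.84 to 2.06 in Cgas+/+.

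In dentate granule-like nuclei 42 of all 68 interferon-stimulated genes had a higher and 19 a lower mean CPM in P301S Cgas-/-. Of 17 tested 15 were above 0, with a median of 0.69, and 2 were higher in every library against 27 of all genes (0.212%). Of 12739 genes 1 passed (0.00785%), which was Gm43049. Eif2ak2 was at 0, 0.488, 0, 0.234 and 0.817 CPM in Cgas+/+ and 2.75, 4.5 and 13.2 CPM in P301S Cgas-/- (3.56 ± 0.768). At these Cgas+/+ levels Eif2ak2 reached the test only through P301S libraries, so its p values are not given. Rnf213, a ubiquitin ligase with antimicrobial activity, was at 3.23, 2.64, 0.404, 0.468 and 1.23 CPM against 3.66, 6.42 and 7.17 CPM (2.07 ± 0.499, adjusted p = 0.257). Both were separate between groups and passed without P301S Cgas+/+ replicate 2 (adjusted p = 0.0285 for Rnf213), when 6 genes passed in the class in place of 1 (0.0473%). That library was left out after the data were seen, so these passes support nothing. P301S Cgas-/- replicate 2 held only 152071 UMIs in this class, of which 2 were from Eif2ak2 and 1 from Rnf213. Oligodendrocyte markers summed in this class to 354 to 500 CPM in P301S Cgas-/- and 344 to 438 CPM in Cgas+/+, with 9 of 10 higher, and choroid plexus markers to 25.9 to 39.1 against 26.7 to 90.4 CPM and ependymal markers to 0 to 8.85 against 6.26 to 9.91 CPM, each with 0 of 7 higher, and their part was not tested. Stat2, a subunit of the interferon-activated complex, had 0.45 ± 0.121 here (adjusted p = 0.379) and 0.66 ± 0.197 in oligodendrocyte-like nuclei (adjusted p = 0.458). For inhibitory neurons 40 of all 68 interferon-stimulated genes had a higher and 22 a lower mean CPM, and the 15 tested had a median of 0.31. Microglial markers summed there to 56.0 to 86.1 CPM in P301S Cgas-/- and 43.7 to 64.2 CPM in Cgas+/+, with 9 of 11 higher, and oligodendrocyte markers to 79.0 to 156 against 64.8 to 127 CPM, with 9 of 10 higher, and their part was not tested. In CA3-like nuclei 26 of all 68 were higher and 26 lower in mean CPM, 9 of 11 tested were above 0 with a median of 0.64 and Herc6, a ubiquitin ligase, had 1.57 ± 0.782 (adjusted p = 1.0).

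Mef2c, a transcription factor of neurons and microglia, was described because the study centres on it. In excitatory neuron-like nuclei it stood at 209, 288, 397, 322 and 270 CPM in Cgas+/+ and at 250, 466 and 792 CPM (lowest, median, highest) in P301S Cgas-/-, with 5 of 6 libraries above every wild-type library. The log2 fold change of 0.74 ± 0.255 did not pass (adjusted p = 0.445) and became -0.10 when only nuclei of named hippocampal subfields were summed. Cortical-like nuclei made up 12.8 to 52.8% of the excitatory nuclei in Cgas+/+ and 29.3 to 63.7% in P301S Cgas-/-, and their part beyond that sum was not tested. Within subfields the log2 fold changes were 0.01 ± 0.0969 in dentate granule-like, -0.10 ± 0.252 in CA1-like and 0.70 ± 0.385 in CA3-like nuclei, and in microglia-like nuclei 0.10 ± 0.12 (adjusted p from 0.713 to 1.0).

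The list of MEF2C and genes that the study names in excitatory neurons, which the study chose on these samples and which is no independent evidence, had 16 of 21 above 0 with a median of 0.21, and none passed. Within subfields the same list had 10 of 21 above 0 in dentate granule-like (median -0.02), 9 of 21 in CA1-like (-0.03) and 11 of 20 in CA3-like nuclei (0.11). The list of MEF2C and genes named in inhibitory neurons, chosen by the study in the same way, had 6 of 18 above 0 in that class, with a median of -0.03. Against the 2 Cgas-/- libraries instead of Cgas+/+, in a fit of all 27 libraries, 430 of 17567 genes passed in excitatory neuron-like nuclei (2.45%, 259 higher and 171 lower), Mef2c (1.43 ± 0.369, adjusted p = 0.0439) among them. Those 2 libraries held 5.67% cortical-like nuclei on average, against 43.1% in P301S Cgas-/-.

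Activity-regulated genes, which neurons induce soon after firing, had 17 of 22 above 0 in excitatory neuron-like nuclei with a median of 0.77, and none passed. In dentate granule-like nuclei 5 of 16 tested were above 0 with a median of -0.10, while over all 22 members 12 had a higher and 10 a lower mean CPM in P301S Cgas-/-. The list mean of 3 of 6 P301S Cgas-/- libraries lay below every Cgas+/+ library there and that of 1 above. The median was 0.07 in CA1-like, 0.22 in CA3-like and 0.19 in inhibitory neuron-like nuclei. Fos was at 1.62, 0.157, 2.29, 3.36 and 1.79 CPM in Cgas+/+ and at 0.81, 20.3, 12.8, 4.44, 2.41 and 1.86 CPM in P301S Cgas-/- replicates 1 to 6. Only replicates 2, 3 and 4 exceeded every wild-type library (1.80 ± 0.708, adjusted p = 0.507), and without replicate 2 the value was 1.117. Egr1 and Ier2, also immediate early genes, each had 3 of 6 libraries above (1.55 ± 0.517 and 1.5 ± 0.561, adjusted p = 0.437 and 0.471, and 1.09 and 0.92 without replicate 2). In P301S Cgas-/- replicates 2, 3 and 4, which lay above for all of these genes, 2066, 1451 and 1501 barcodes were removed for holding over 4000 genes, against 289 to 1133 in the other 8, and the part of this was not tested. Grik4, a kainate receptor subunit concentrated in CA3, had -0.65 ± 0.208 with 5 of 6 libraries below (adjusted p = 0.415). The 9 CA3 markers summed to 473 to 981 CPM in these Cgas+/+ sums and 346 to 552 CPM in P301S Cgas-/-, with 1 of 9 higher, and their part was not tested. Of 28 tested glutamatergic synapse genes 18 were below 0, with a median of -0.11, and 0 were lower in all 6 libraries, against 45 of all genes (0.269%).

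Among genes tested in inhibitory neuron-like nuclei 2 of 12652 passed (0.0158%). Besides Gm43049, Itgad, an integrin alpha subunit, fell from 7.11, 7.72, 2.8, 3.48 and 5.2 CPM to 0.59, 1.25 and 2.01 CPM, lower in all 6 libraries (-2.0 ± 0.312, adjusted p = 0.00472, and 0.054 when only the 11 libraries were fitted). Its difference between the P301S groups was -1.70 ± 0.313 and did not pass (adjusted p = 0.119), and P301S Cgas+/+ stood at 2.09 to 4.77 CPM. Gria1, an AMPA receptor subunit, was lower in all 6 libraries as well (2440 to 3660 against 3760 to 4760 CPM) but far from passing (-0.48 ± 0.147, adjusted p = 1.0). In CA3-like nuclei none of 8828 genes passed (0.0%, with 408 at an unadjusted p under 0.05 and 2 calls in DESeq2), and the fit held only the 3 P301S Cgas-/- libraries with at least 10 such nuclei.

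Shares of nuclei were compared for 21 classes and subfields by two-sided exact permutation tests, and none passed after adjustment. CA3-like nuclei made up 13.1, 10.5, 0.6, 2.59 and 11.2% of excitatory nuclei in Cgas+/+ and 0.0306, 0.432 and 3.39% (lowest, median, highest) in P301S Cgas-/-. Of the 6 libraries 3 lay below every wild-type library (exact permutation p = 0.0433, adjusted p = 0.227). Fewer CA3 neurons in the tissue and less CA3 in the dissection cannot be told apart. The upper limit on genes per barcode also removed 2066, 1451 and 1501 barcodes in P301S Cgas-/- replicates 2, 3 and 4. It removed 311, 468 and 320 in replicates 1, 5 and 6, and 289 to 1133 in the Cgas+/+ libraries. The part of this limit in the CA3-like shares was not tested.

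Oligodendrocyte-like nuclei made up 16.9, 29.5, 18.3, 13.5 and 11% of kept nuclei in Cgas+/+ and 24.0, 25.8 and 31.0% in P301S Cgas-/-, with 2 libraries above every wild-type library (exact permutation p = 0.0216, adjusted p = 0.152). T cell-like nuclei were 0 to 0.0675% in Cgas+/+ and 0.0306 to 0.541% in P301S Cgas-/-, with 4 of 6 above (exact permutation p = 0.0216, adjusted p = 0.152), a total of 88 nuclei. Committed oligodendrocyte precursor-like nuclei were 0.0386 to 0.162% in Cgas+/+ and 0.0969 to 0.305% in P301S Cgas-/-, with 5 of 6 above (exact permutation p = 0.0216, adjusted p = 0.152). Microglia-like nuclei were 4.38, 4.12, 3.94, 3.75 and 4.22% in Cgas+/+ and 3.71, 5.85 and 9.01% in P301S Cgas-/-. Replicates 3 and 6 did not exceed the wild-type range (exact permutation p = 0.0866, adjusted p = 0.303).

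**Figure D5:**
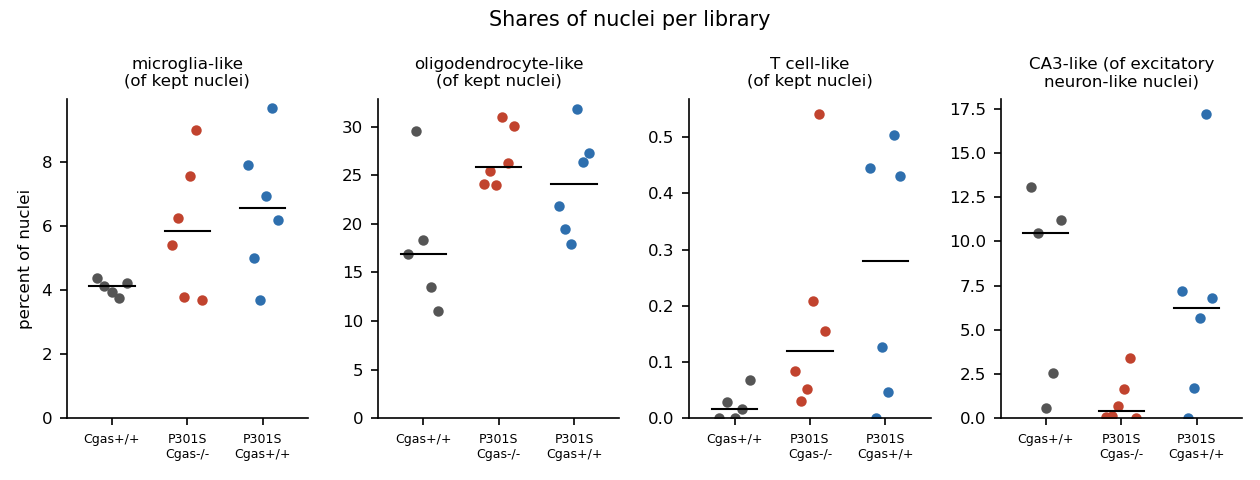
Percent of nuclei per library (y axis, from 0) that were microglia-like, oligodendrocyte-like or T cell-like among kept nuclei, or CA3-like among excitatory neuron-like nuclei, with a line at the median of the 5 Cgas+/+, 6 P301S Cgas-/- and 6 P301S Cgas+/+ libraries. CA3-like shares run from 0.6 to 13.1% in Cgas+/+ and from 0.0306 to 3.39% in P301S Cgas-/-.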

How the data were processed

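The authors deposited raw UMI counts per gene and barcode from Chromium 3′ version 3 libraries of hippocampal nuclei, aligned to mm10 with introns counted (Cell Ranger 3.1.0 per the submitters' processing notes, while matrix headers give 3.0.2 or 3.1.0). Those deposited counts were used unscaled. The study's filter was applied, which keeps barcodes of 200 to 4000 genes whose mitochondrial share does not exceed 5% (221281 of 241938 over 27 libraries), and the highest Scrublet doublet scores were removed at 0.8% per 1000 barcodes, leaving 203414. Nuclei were clustered with scanpy 1.11.5 (2000 variable genes, 30 principal components, Leiden resolution 1.0), and clusters were named from at least 3 markers. In all, 32 of 41 clusters were named and 9.5% of nuclei stayed unnamed, and differences from the study may come from these rebuilt names.

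Summed counts of 23 libraries in 4 groups, which share 1 estimate of the spread (the 11, 6 P301S Cgas+/+ and 6 P301S Cgas+/-), were tested with edgeR 4.0.16 (TMM, filterByExpr, robust quasi-likelihood, sex as a covariate), with Benjamini-Hochberg adjustment over all genes of a class. Libraries with fewer than 10 nuclei of a class were left out of its fit. Alternatives were DESeq2 1.42.0, other scaling, filters, covariates and sets of libraries, and each library left out in turn. Scripts were tested on simulated data. In each class the text draws on Cgas, Sting1, Mef2c, the transgene-linked genes, the genes of smallest adjusted p among those past 0.05 (or, where none passed, the 3 of smallest p in each direction) and the members of smallest p of each list. Members and lists were chosen with earlier results of these data known. Some named genes are not reported here. Cell states within the microglia-like class were not separated. The matched 250 bases came from RefSeq.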

Additional observations from a re-analysis of the deposited data

Results flagged for a closer look

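Dixon's test at the 95% level marked 23 of 251 groups of 5 or 6 libraries (9.16%) as holding 1 value far from the rest. For normal, independent values it would mark about 1 in 20. Some of these values rest on few UMIs and all come from the same libraries, so the 9.16% cannot be read against that rate. In CA1-like nuclei, P301S Cgas-/- replicate 2 stood apart for the interferon-stimulated genes Oasl2 (56.6 CPM) and Parp9 (26.1 CPM), and it stood apart for Ifit1 in excitatory neuron-like nuclei (3.64 CPM) and for Eif2ak2 in dentate granule-like nuclei (13.2 CPM, from 2 UMIs). Among Cgas+/+ libraries in CA1-like nuclei, replicate 4 stood apart for Oasl2 (0.353 CPM) and Parp9 (6.0 CPM).

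In astrocyte-like nuclei, P301S Cgas-/- replicate 5 was, within its group, the highest for Osmr (269 CPM) and the lowest for the cholesterol synthesis genes Sc5d (16.6 CPM), Dhcr7 (13.9 CPM) and Sqle (12.7 CPM). The same library had the highest shares within its group of T cell-like nuclei (0.541%) and of CA2-like nuclei among excitatory nuclei (1.08%). In oligodendrocyte-like nuclei, P301S Cgas-/- replicate 3 was the highest of its group for H2-D1 (189 CPM) and for Rab27a (5.74 CPM).

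The remaining single values were Eps8 in microglia-like nuclei of P301S Cgas-/- replicate 4 (32.3 CPM), B2m and Cst3 in microglia-like nuclei of Cgas+/+ replicates 5 and 4 (110 and 1760 CPM), Gbp2b in astrocyte-like nuclei of Cgas+/+ replicate 5 (0.216 CPM), and in inhibitory neuron-like nuclei Gm43049 of Cgas+/+ replicate 4 (0.218 CPM) and Mef2c of Cgas+/+ replicate 3 (734 CPM). Shares stood apart in Cgas+/+ replicate 2 for Cajal-Retzius-like (0.618%) and inhibitory neuron-like nuclei (2.82%) and in Cgas+/+ replicate 5 for fibroblast-like nuclei (3.57%).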

How the results depend on the processing

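The count of changed genes was the result that moved most, and the cause was not tested. In microglia-like nuclei 0 became 48 with all 27 libraries in the fit, 323 in DESeq2, 1055 with no low-count filter, 774 with only the 2 groups, 3 with no sex term, 1 with likely doublets kept, and 0 to 148 with 1 library left out (21 if P301S Cgas-/- replicate 3 is dropped, and 148 if P301S Cgas+/+ replicate 2 is, a choice made after seeing the data). In astrocyte-like nuclei 0 became 42 in DESeq2, 1 with no filter, 80 with only the 2 groups, 2 with the software version of the matrix header as a term, and 0 to 1 with 1 library left out (1 without P301S Cgas-/- replicate 3). In oligodendrocyte-like nuclei the same alternatives gave 21, 1, 11, 1 and 0 to 1 (the same replicate), and 1 with doublets kept. In progenitor-like nuclei 3 became 16 in DESeq2, 50 with no filter, 33 with only the 2 groups, 1 with no sex term and 1 to 5 with 1 library left out (1 without Cgas+/+ replicate 1, 3 or 5 or P301S Cgas-/- replicate 2, and 5 without Cgas+/+ replicate 4). St6galnac5 there missed the threshold without Cgas+/+ replicate 1, 2, 3 or 5 or P301S Cgas-/- replicate 1, 2, 3 or 5 (adjusted p 0.0566 to 0.26), with doublets kept (0.363) or no sex term (0.119). Gm43049 missed it without Cgas+/+ replicate 1, 2, 3 or 5 or P301S Cgas-/- replicate 1, 2 or 4, or with no sex term. DESeq2 gave 49 in excitatory neuron-like (16 higher and 33 lower), 4 in inhibitory neuron-like, 14 in dentate granule-like and 2 in CA3-like nuclei. Leaving out 1 library gave 3 to 10 in excitatory (10 without Cgas+/+ replicate 3), 2 to 3 in inhibitory, 1 to 6 in dentate granule-like (4 without Cgas+/+ replicate 2 and 6 if P301S Cgas+/+ replicate 2 is dropped), 1 to 3 in CA1-like (1, with Prn lost, without P301S Cgas-/- replicate 1, 2, 4 or 5 or P301S Cgas+/+ replicate 2) and 0 to 1 in CA3-like nuclei (1 without P301S Cgas-/- replicate 3 or 4). Prn was also lost in CA1-like nuclei with no filter (0.0549) and without Cgas+/+ replicate 1, 4 or 5 (0.0542 to 0.198). With only the 2 groups the count was 4 in dentate granule-like and 1 in CA1-like nuclei, and in CA3-like nuclei it was 1 with all 27 libraries and 62 with no filter. Scaling by RLE in place of TMM moved no count by more than 1.5 times. Of the log2 fold changes of named genes under alternatives, 1906 kept their direction and side of the threshold, 143 passed where the reported value did not, 29 no longer passed and 13 changed sign, all of these 13 among values that had not passed. In hippocampal-like nuclei alone, Mapt was -0.01 (-0.009) and Mef2c -0.10 (-0.099). Mef2c, near 0, also changed sign with 1 library left out in inhibitory neuron-like (-0.024 to 0.073), dentate granule-like (-0.023 to 0.05, and -0.008 with no filter) and CA1-like nuclei (-0.381 to 0.114). Sting1 in microglia-like nuclei ranged from -0.83 (-0.833) to -0.54 (-0.537) on the log2(CPM + 1) scale. Differences in share, in percentage points, changed sign with doublets kept for Cajal-Retzius-like (-0.0235) and endothelial-like nuclei (-0.105), and ranged across 0 with 1 library left out for unnamed (-0.553 to 0.948), endothelial-like (-0.0887 to 0.23), CA1-like (-5.76 to 0.276), pericyte or smooth muscle-like (-0.036 to 0.221) and fibroblast-like nuclei (-0.808 to 0.0842). No paired analysis was possible because the labels give no replicate numbers. At this depth, a level near 1 UMI per library, as for Oasl2 in Cgas+/+ neurons, limits what a fold change can show.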

Other observations

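Some values belong to no comparison above. In the 2 Cgas-/- libraries without the transgene, microglial Lgals3bp stood at 6.13 and 9.95 CPM and H2-K1 at 20.8 and 26.5 CPM, inside the Cgas+/+ ranges. Against them, P301S Cgas-/- had log2 fold changes of 2.02 ± 0.669 for Lgals3bp, 2.96 ± 0.845 for H2-K1 and 1.72 ± 0.599 for Cd9. None passed in edgeR (adjusted p = 0.175 for H2-K1 and 0.22 for Cd9). That of Lgals3bp is not given, as the gene reached this test too only through P301S libraries. In this fit of 27 libraries 0 of 9698 microglial genes passed and 1267 had an unadjusted p under 0.05. Itgad in inhibitory neuron-like nuclei was at 4.22 and 9.15 CPM in those libraries and passed against them (-2.30 ± 0.396, adjusted p = 0.0171).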
